A study of Mus musculus with 13 samples.

Results

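The 10 genes described here encode enzymes that make serine, pass its carbon on to folate, and use glycine, methionine and homocysteine, together with both enzymes of creatine synthesis. They were taken as a named list, Phgdh, Psat1, Psph, Shmt2, Mthfd2, Gatm, Gamt, Gnmt, Cbs and Cth, and all 10 were among the 23366 genes in the table. RNA was sequenced from the pancreas of 13 female mice, with one library per mouse. All mice were reprogrammable i4F-B mice. They carry a doxycycline-inducible cassette of the reprogramming factors Oct4, Sox2, Klf4 and c-Myc (OSKM), inserted in the Pparg gene and described as ubiquitous. By the paper, its expression differs between cell types. After an injection of doxycycline in young mice, acinar cells broadly showed Sox2 protein, and most endocrine cells of the pancreas did not. There were 4 young mice of 13 weeks, 5 old mice of 55 weeks and 4 old-OSKM mice, which had received doxycycline in the drinking water for 1 week and had recovered for 2 weeks, reaching 58 weeks by their labels. The untreated mice received no doxycycline, so the effects of the drug, of the cassette and of the few weeks' difference in age cannot be told apart. The question was whether these enzymes differ with age in the pancreas, and whether they differ between old mice with and without the transient reprogramming cycle.

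Serine is made from a glycolytic intermediate by Phgdh, Psat1 and Psph, and the mitochondrial enzymes Shmt2 and Mthfd2 release its side-chain carbon as one-carbon units on folate. Gatm and Gamt build creatine from arginine, glycine and a methyl group from S-adenosylmethionine, Gnmt spends the same methyl donor on glycine, and Cbs and Cth turn homocysteine and serine into cysteine. The exocrine pancreas secretes large amounts of protein and is known for a high content of several of these enzymes. Several genes of serine and one-carbon metabolism are known targets of Atf4, the transcription factor of the amino acid response.

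The sequences upstream of 5 members are shown because these members stand for the patterns described below: Phgdh, Psat1 and Shmt2 varied together between mice, and Gatm and Gnmt had the lowest p-values between old and young mice. They are RefSeq sequences of GRCm38.p6 (the assembly also called mm10), read 5′ to 3′ in the direction of the gene and ending at the RefSeq start site, less any bases that GENCODE annotates as exon. For Psat1 the GENCODE gene model begins further upstream, so the stretch printed lies within that model, outside its exons. Capitals mark the letters CCAAT on either strand (ATTGG where the match is on the opposite strand).
Phgdh promoter, chr3:98339991-98340219, minus strand: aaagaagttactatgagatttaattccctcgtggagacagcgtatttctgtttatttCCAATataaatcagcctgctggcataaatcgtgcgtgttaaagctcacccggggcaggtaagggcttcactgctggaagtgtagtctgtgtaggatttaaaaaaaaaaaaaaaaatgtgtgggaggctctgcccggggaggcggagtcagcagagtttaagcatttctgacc
Psat1 promoter, chr19:15925060-15925309, minus strand: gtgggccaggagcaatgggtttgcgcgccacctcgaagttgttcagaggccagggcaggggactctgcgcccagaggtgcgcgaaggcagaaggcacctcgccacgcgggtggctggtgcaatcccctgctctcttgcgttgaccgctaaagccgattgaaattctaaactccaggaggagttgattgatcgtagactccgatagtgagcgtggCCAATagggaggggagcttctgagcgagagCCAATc
Shmt2 promoter, chr10:127522445-127522694, minus strand: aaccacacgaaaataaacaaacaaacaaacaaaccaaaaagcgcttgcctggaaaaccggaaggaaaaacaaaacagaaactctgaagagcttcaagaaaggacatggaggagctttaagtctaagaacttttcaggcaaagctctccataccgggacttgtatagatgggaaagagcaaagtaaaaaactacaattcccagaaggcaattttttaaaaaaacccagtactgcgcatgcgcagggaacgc
Gnmt promoter, chr17:46729169-46729415, minus strand: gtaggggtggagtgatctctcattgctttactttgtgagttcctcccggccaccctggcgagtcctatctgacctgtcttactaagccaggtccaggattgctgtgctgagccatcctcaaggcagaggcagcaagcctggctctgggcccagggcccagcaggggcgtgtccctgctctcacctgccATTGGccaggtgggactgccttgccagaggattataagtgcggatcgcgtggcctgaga
Gatm promoter, chr2:122611304-122611527, minus strand: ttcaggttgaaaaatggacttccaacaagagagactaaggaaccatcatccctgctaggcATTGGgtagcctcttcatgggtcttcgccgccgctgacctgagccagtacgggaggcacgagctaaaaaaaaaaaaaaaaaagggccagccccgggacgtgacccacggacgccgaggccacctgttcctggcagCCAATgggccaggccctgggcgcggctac
Of the 10 members, 9 had an entry in this collection of promoters. CCAAT was found within the 250 bases upstream of the start in 7 of the 9. Counted by window, it was in 7 of their 10 windows and in 33.8% of all 32851 windows of that length. The printed stretches hold 1 match upstream of Phgdh, 2 of Psat1, none of Shmt2, 1 of Gnmt and 2 of Gatm. The palindrome CACGTG, read by Myc-type factors, was found upstream of Cbs only, against 6.02% of all windows. TGATGNAA, a form of the amino acid response element read by Atf4, was found on neither strand in any of the 9, against 3.45% of all windows.

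All 10 genes lie on the minus strand. In GENCODE coordinates on GRCm38, the serine synthesis genes Phgdh, Psat1 and Psph span chr3:98313170-98339990, chr19:15904678-15947337 and chr5:129765558-129787449. Shmt2 and Mthfd2 span chr10:127517123-127522444 and chr6:83305691-83325908, and Gatm and Gamt span chr2:122594467-122611303 and chr10:80258151-80261012. Gnmt lies at chr17:46725664-46729168, Cbs at chr17:31608894-31637238 and Cth at chr3:157894248-157925077. The annotation puts another gene on the opposite strand over part of Psat1 (the pseudogene Gm3329), Psph (Cct6a), Shmt2 (Ndufa4l2) and Gnmt (the noncoding Gm26904), and on the same strand over part of Mthfd2 (Gm43890) and Cth (Gm43314). Counting was not stated to use strand, so reads from these overlaps cannot be assigned to one gene with certainty.

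Values are log2 RPKM, reads scaled to transcript length and library size, on a log2 scale, so levels of different genes can be compared per length. Gatm was the most abundant member, with a mean over the 13 mice of 28.3 RPKM (4.82 ± 0.14 log2 RPKM, SD). Cbs followed with 21.5 RPKM, Gamt with 18.04, Phgdh with 16.2 and Gnmt with 11.2, which places these 5 genes in the top percentiles of the table. Mthfd2 had 7.83 RPKM and Psat1 7.71, then came Shmt2 with 5.26, Cth with 4.05 and Psph with 1.61. Every neighbouring pair in this order was ordered the same way in 13 of 13 mice except Mthfd2 and Psat1, where Mthfd2 was the higher in only 5 of 13. Within the pathways, the first committed enzyme Phgdh was thus well above Psat1 and Psph, and Cbs well above Cth.

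Libraries that stood apart bear on several values below. The acinar markers dominated every library (Cpa1, a pancreatic carboxypeptidase, lay between 1114 and 1335 RPKM), while Alb, the liver's albumin, was at 40.9 RPKM in young 3 and at most 2.36 RPKM in the other mice. In young 3 the 25 hepatocyte markers summed to 121.8 RPKM against 3.63 to 13.8 in the other 12. In old-OSKM 4 the 10 fibroblast and stellate markers summed to 77.4 RPKM, against 28.8 to 45.7 in the other old-OSKM mice and 22.9 to 29.1 in old mice, and the 19 acinar markers summed to 13198 RPKM, the lowest of the series. It also had the highest sums of islet beta markers (435 RPKM, against 68.4 to 144.6 in the other old-OSKM mice), of islet alpha, delta and PP markers (72.4 against 15.3 to 24.3) and of duct markers (61.8). The same mouse was the lowest of all 13 in 8 of the 10 members. Young 4 was raised in the same fibroblast and stellate markers, at 58.0 RPKM, and had the second highest duct sum, at 61.1 RPKM. Old-OSKM 1 had the highest sums of T cell (7.04 RPKM), macrophage (43.8), B and plasma cell (14.1) and proliferation (4.91) markers. It also had the largest share of genes more than 1 log2 unit from their group mean, 2.32% against 2.02% in old-OSKM 4. In whole tissue, fewer cells of a type and less RNA per cell cannot be told apart.

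Between old and young mice, the first enzyme of creatine synthesis had the lowest p of the 10 members, which did not pass the adjustment over all genes. Gatm, which makes guanidinoacetate from arginine and glycine, was at 4.77, 4.99, 5.02 and 5.02 log2 RPKM in the young mice and at 4.64, 4.75, 4.68, 4.59 and 4.90 in the old mice. All 5 old mice lay below the young mean, and the groups overlapped because young 1 was lower than old 5. The difference was -0.24 on the log2 scale (SE 0.076, 95% interval -0.40 to -0.07), that is 0.849 of the young level, with a raw p of 0.00948 and an adjusted p of 0.61 in limma. The exact permutation test over 126 splits of the mice gave a two-sided p of 0.0317, where 0.00794 is the smallest it allows. In old-OSKM mice Gatm was at 4.71, 4.81, 4.83 and 4.92, a level between the other groups, 0.10 above old mice (95% interval -0.06 to 0.27, exact permutation p = 0.19). These old-OSKM values overlapped with both untreated groups.

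Gamt, which methylates guanidinoacetate to creatine, showed no difference beyond its spread. It was at 4.23, 4.26, 4.10 and 3.93 log2 RPKM in young mice, at 4.33, 4.30, 4.23, 4.14 and 4.07 in old mice, and at 4.18, 4.37, 4.38 and 3.53 in old-OSKM mice. The values of young and old mice overlapped, and the low value of old-OSKM 4 alone set the spread of its group. The differences were 0.08 between old and young mice (95% interval -0.26 to 0.42) and -0.10 between old-OSKM and old mice (-0.44 to 0.24).

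Gnmt, which uses up surplus methyl groups by methylating glycine, was the other member with a raw p under 0.05 between old and young mice. It was at 3.47, 3.24, 3.46 and 3.16 log2 RPKM in young mice and at 3.66, 3.62, 3.68, 3.73 and 3.39 in old mice. All old mice lay above the young mean, and only old 5 fell into the range of the young. The difference was 0.28 (SE 0.12, 95% interval 0.02 to 0.55), or 1.22-fold, with a raw p of 0.038, an adjusted p of 0.843 in limma and an exact permutation p of 0.0317. Its raw p stayed under 0.05 in 7 of the 13 fits that left out 1 mouse, and without young 4 the difference was 0.23. With the identifier run (described below) as a covariate it was 0.24 (95% interval -0.04 to 0.51). In old-OSKM mice Gnmt was at 3.46, 3.62, 3.61 and 3.07, 0.18 below old mice (95% interval -0.44 to 0.09, exact permutation p = 0.23). Without old-OSKM 4 this last difference was -0.05.

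The serine synthesis genes showed wide spreads and no difference beyond them. Phgdh, which commits a glycolytic intermediate to serine, was at 4.19, 4.06, 4.07 and 3.74 log2 RPKM in young mice, at 4.11, 4.02, 4.12, 4.10 and 3.91 in old mice, and at 3.9998, 4.18, 4.15 and 3.48 in old-OSKM mice. Psat1, the transaminase of the second step, was at 3.11, 2.54, 3.07 and 2.42 in young mice, at 3.13, 3.005, 3.1998, 2.87 and 2.96 in old mice, and at 3.13, 3.203, 3.02 and 2.29 in old-OSKM mice. Psph, the phosphatase that releases serine, was at 1.31, 0.32, 0.96 and 0.12 in young mice, at 0.64, 0.58, 0.73, 0.86 and 0.71 in old mice, and at 0.76, 1.10, 0.51 and -0.55 in old-OSKM mice. For each of them young mice enclosed or nearly enclosed the old ones, and old-OSKM 4 was the lowest of all 13 mice. The differences between old and young mice were 0.04 for Phgdh (95% interval -0.26 to 0.34), 0.25 for Psat1 (-0.19 to 0.68) and 0.03 for Psph (-0.66 to 0.72). Between old-OSKM and old mice they were -0.10 (-0.40 to 0.20), -0.12 (-0.56 to 0.31) and -0.25 (-0.94 to 0.44).

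The mitochondrial pair that loads folate with one-carbon units was compared next. Shmt2, which splits serine into glycine and a one-carbon unit, lay between 2.05 and 2.58 log2 RPKM in young mice, 2.41 and 2.52 in old mice, and 1.87 and 2.66 in old-OSKM mice. Mthfd2, which oxidizes that unit, was at 3.06, 2.93, 2.96 and 2.82 in young mice, at 3.06, 2.95, 3.05, 3.19 and 3.05 in old mice, and at 2.89, 3.03, 2.91 and 2.61 in old-OSKM mice. All 4 old-OSKM mice lay below the old mean of Mthfd2, but old 2 and old-OSKM 2 overlapped. Mthfd2 was the only member with a raw p under 0.05 between old-OSKM and old mice, with a difference of -0.20 (SE 0.084, 95% interval -0.39 to -0.02), or 0.87 of the old level, a raw p of 0.036, an adjusted p of 0.547 in limma and an exact permutation p of 0.0397. Without old-OSKM 4 the difference was -0.12 with a raw p of 0.11 in limma. For Shmt2 the differences were 0.08 (-0.24 to 0.40) between old and young mice and -0.13 (-0.45 to 0.19) between old-OSKM and old mice.

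Of the transsulfuration enzymes, Cbs joins serine to homocysteine and Cth releases cysteine from the product. Cbs was the steadiest member, at 4.29 to 4.51 log2 RPKM in young mice, 4.30 to 4.53 in old mice and 4.44 to 4.58 in old-OSKM mice. Its differences were 0.03 (-0.10 to 0.16) between old and young mice and 0.09 (-0.04 to 0.22) between old-OSKM and old mice. Cth ranged from 1.67 to 2.29 in young mice, 1.92 to 2.20 in old mice and 1.29 to 2.29 in old-OSKM mice, with differences of 0.14 (-0.26 to 0.54) and -0.23 (-0.62 to 0.17).

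**Figure D1:**
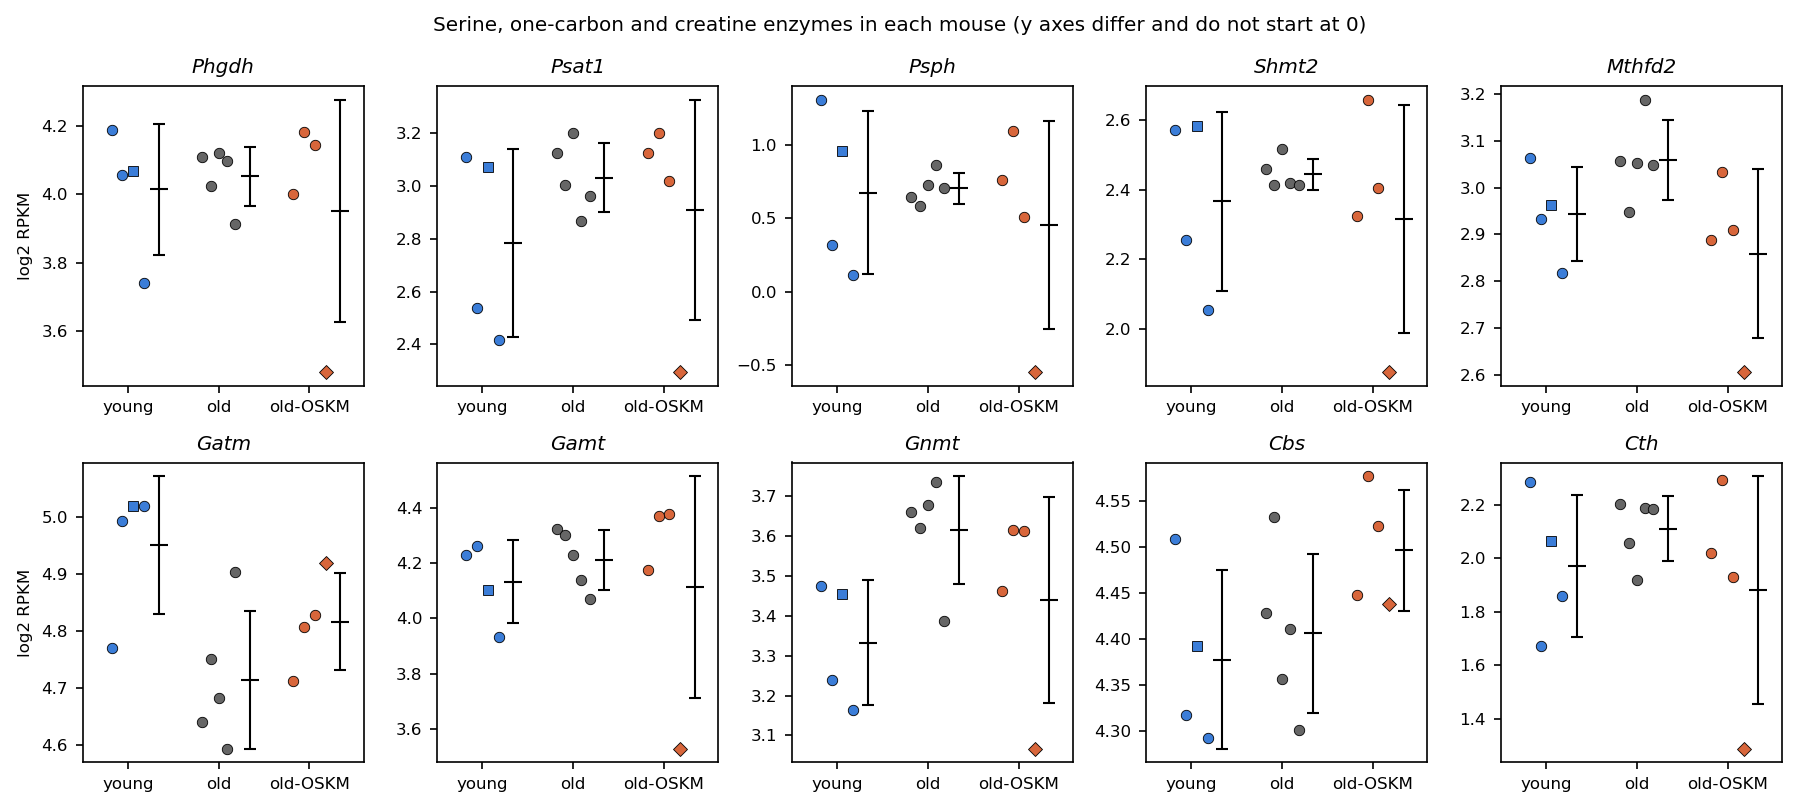
Each point is the log2 RPKM of 1 mouse, grouped as young (blue), old (grey) and old-OSKM (orange), with the group mean and SD beside the points; the square is young 3 and the diamond old-OSKM 4, and each panel has its own y axis. In 8 panels the diamond is the lowest point of the 13 mice, while in Gatm 4 of the 5 old mice lie below all young mice.

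A gene was called where it passed both a raw p of 0.01 and a fold change of 1.5. None of the 10 members was called in any comparison. Over all 23366 genes that rule called 0.886% between old and young mice, 0.753% between old-OSKM and old mice and 0.625% between old-OSKM and young mice. A raw p under 0.05 was reached by 2 of the 10 (Gatm lower, Gnmt higher) between old and young mice, against 5.52% of all genes, by 1 of the 10 (Mthfd2, lower) between old-OSKM and old mice, against 8.07%, and by none between old-OSKM and young mice, against 5.07%. No member passed an adjusted p of 0.05 in limma, which 0.0813%, 0.00428% and 0.0428% of all genes did in the 3 comparisons. No member had groups that did not overlap in any comparison, which happened for 2.71%, 1.73% and 1.9% of all genes. Old minus young, 9 members were positive and 1 negative, with a median of 0.08 against 0.00 for all genes. Old-OSKM minus old, 2 were positive and 8 negative, with a median of -0.13 against -0.04, and old-OSKM minus young 3 were positive and 7 negative, with a median of -0.06 against -0.04. These comparisons share groups, so their values are not independent of each other.

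The direction between old-OSKM and old mice rested on 1 mouse. Without old-OSKM 4, 3 of the 10 members were lower in old-OSKM mice instead of 8, the median was 0.06, and Phgdh, Psat1, Psph, Shmt2 and Gamt changed sign (to 0.06, 0.08, 0.09, 0.02 and 0.10). Without young 4, 5 of the 10 instead of 1 were negative old minus young, and the median was 0.01. The part that the stromal, duct, islet and acinar markers of these mice had in this was not tested. The sample identifiers fall into 2 runs, and the later one holds 3 mice (young 3, young 4 and old 5) and no old-OSKM mouse, too few for a test within it. Within the early run alone (2 young, 4 old and 4 old-OSKM mice), Gatm was -0.21 old minus young (95% interval -0.41 to -0.02), Gnmt was 0.32 (-0.03 to 0.66), and Mthfd2 was -0.20 old-OSKM minus old (-0.43 to 0.02).

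**Figure D2:**
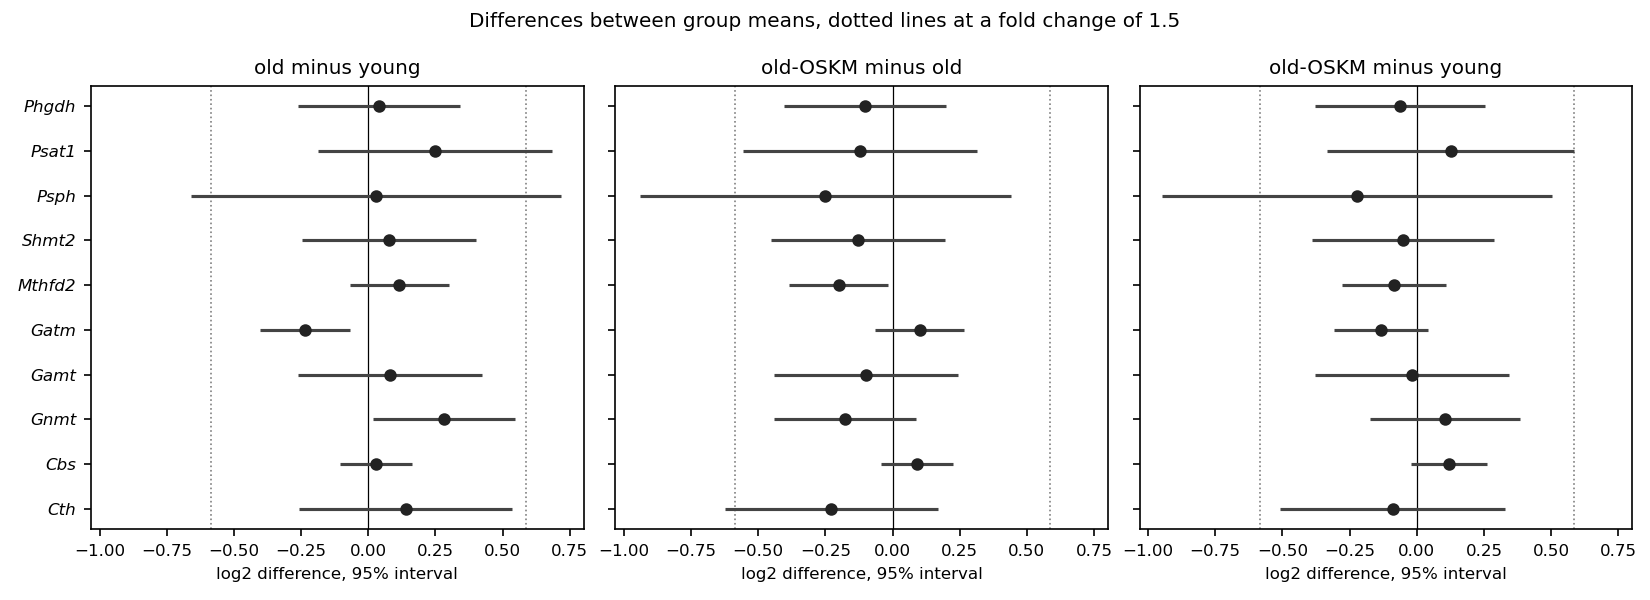
Differences between group means on the log2 scale (points) with their 95% intervals from limma (bars) for the 10 members in the 3 comparisons; dotted lines mark a fold change of 1.5. Only the intervals of Gatm and Gnmt (old minus young) and of Mthfd2 (old-OSKM minus old) leave out 0, and all points lie between -0.25 and 0.28.

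The members differed far more in how they varied between mice of the same group. The residual SD around the group means was 0.50 for Psph, 0.31 for Psat1 and 0.28 for Cth. Psph was at the 98th percentile of the 6268 genes at least as abundant as Psph. By that definition Psph is the least abundant of them, so the percentile does not compare it with genes of its own level. The residual SD was 0.25 for Gamt, 0.23 for Shmt2, 0.21 for Phgdh and 0.19 for Gnmt, all above the median of 0.14 for those 6268 genes. Mthfd2 with 0.13, Gatm with 0.11 and Cbs with 0.085 varied less than that median. In 8 of the 10 members (all but Gatm and Cbs) the SD was smallest in the old mice, a difference in spread that was not tested.

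With the group means taken out, most members varied together from mouse to mouse. Of the 45 pairs, 36 had a positive Pearson correlation over the 13 mice. By permutation 31 passed an adjusted p under 0.05 (30 by Spearman, not all of them the same pairs). Psat1 and Shmt2 had the highest, with r = 0.94 and rho = 0.93 (adjusted permutation p 0.000225 for r, from a p of 1e-05, the smallest that 100000 permutations can give, and 0.000825 for rho). Without the 2 mice farthest from the median of Psat1, r was 0.80. The median r of all 45 pairs was 0.749. Pairs with Gatm or Cbs had the lowest r, and leaving both out gives Phgdh, Psat1, Psph, Shmt2, Mthfd2, Gamt, Gnmt and Cth. Among these members all 28 pairs passed by Pearson, with r from 0.677 to 0.94 and a median of 0.838. By Spearman, Gamt did not pass with Shmt2, Psat1, Mthfd2, Psph or Cth, nor did Phgdh with Cth. The lowest of these was Gamt with Cth (rho = 0.35, adjusted permutation p 0.238). These values are not independent of the choice of members, which follows the correlations in these same mice. For scale, the median r over all pairs of the genes at least as abundant as Psph was 0.028, and 2.17% of those pairs exceeded 0.838. Because the members behind the 0.838 were picked by their r, that share is a description and no test. Psph and Shmt2 (r = 0.94, rho = 0.86), Phgdh and Gamt (r = 0.93, rho = 0.80), Phgdh and Gnmt (r = 0.93, rho = 0.90) and Psph and Cth (r = 0.92, rho = 0.88) followed, each with an adjusted permutation p under 0.01 for both measures.

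Gatm had the opposite sign. Its correlation with each of the other 9 members was negative, from -0.41 with Shmt2 to -0.66 with Gnmt, and the pair with Gnmt was the only one of these to pass by Pearson (rho = -0.60, adjusted permutation p 0.0222 for r and 0.0485 for rho, r = -0.50 without the 2 farthest mice). By Spearman, Gatm also passed with Mthfd2 (rho = -0.72, adjusted permutation p 0.0155) and with Psph (rho = -0.61, adjusted permutation p 0.0483). Without old-OSKM 4 12 of the 45 pairs passed, and the median r of all 45 was 0.593. The 28 pairs of the 8 members other than Gatm and Cbs then ranged from 0.04 to 0.88 with a median of 0.647. That median was exceeded by 4.17% of the pairs of genes at least as abundant as Psph in those 12 mice. These genes were not matched to the members in level. Psat1 and Gamt, at r = 0.75 with all mice, fell to -0.018 without the 2 mice farthest from the median of Psat1 (young 4 and old-OSKM 4). The mice at the ends were the same for most members: old-OSKM 4 was below its group mean in 9 of the 10 (median deviation -0.46) and young 4 in 9 (-0.18), whereas old-OSKM 2 was above it in 9 (0.24) and young 1 in 9 (0.16).

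**Figure D3:**
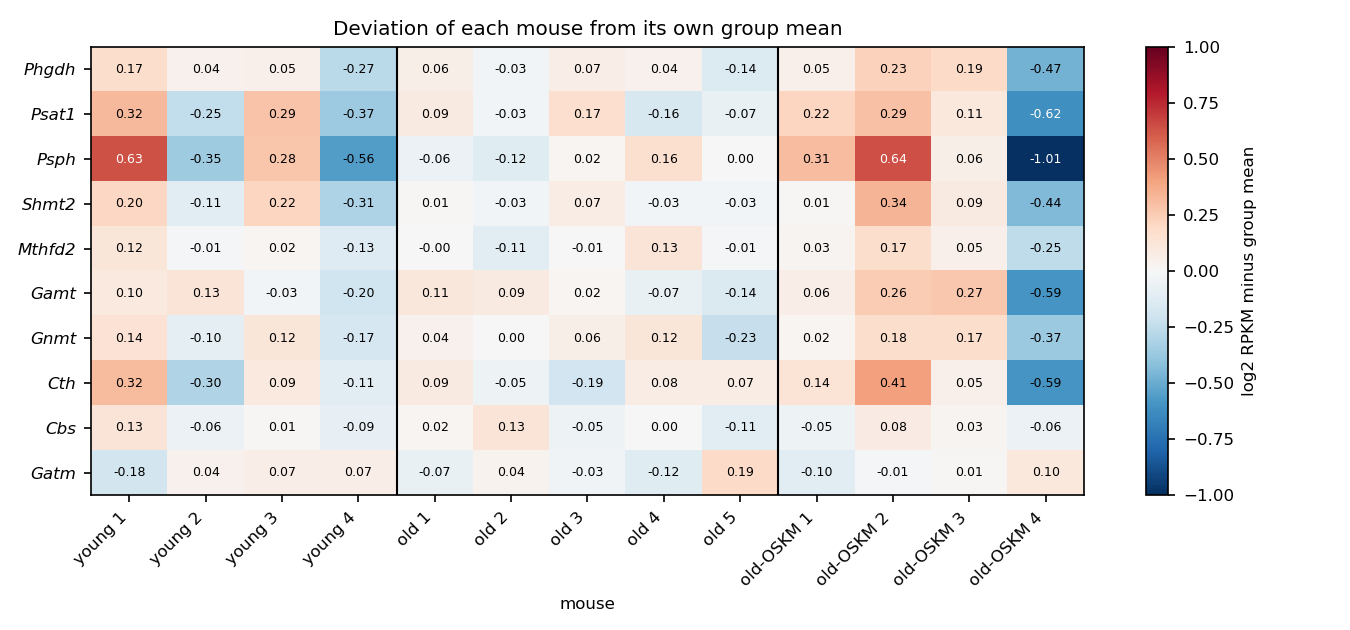
Each cell gives the log2 RPKM of 1 member (row) in 1 mouse (column) minus the mean of that mouse's group, in red where above and in blue where below. The columns of young 4 and old-OSKM 4 are blue in 9 of the 10 rows, and the bottom row, Gatm, is red there.

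The other genes of these pathways were taken from a list of 95, in 6 groups, and all 95 were in the table. Between old and young mice 1 was called higher (Pipox) and 1 lower (Cdo1). Between old-OSKM and old mice, a comparison that shares the old mice, 1 was called higher (Cdo1) and 1 lower (Pipox), and between old-OSKM and young mice none was called. A raw p under 0.05 was reached by 6 of the 95 (6.32%) old minus young, by 11 (11.6%) when old-OSKM and old mice were compared, and by 5 (5.26%) old-OSKM minus young, against the shares of all genes given above. The medians of the 95 were 0.00, -0.07 and -0.10.

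Cdo1, the dioxygenase that commits cysteine to taurine and sulfate and so drains the product of Cbs and Cth, was at 1.48, 1.79, 1.60 and 1.66 log2 RPKM in young mice, at 0.88, 0.54, 0.37, 0.53 and 0.09 in old mice, and at 1.85, 1.21, 1.23 and 0.72 in old-OSKM mice. All old mice lay below all young mice. Of the old-OSKM mice, old-OSKM 1 lay above all young mice, old-OSKM 4 in the range of the old, and the other two between the groups. Old minus young the difference was -1.15 (SE 0.20, 0.451 of the young level, adjusted p = 0.0835 in limma, exact permutation p = 0.00794). Old-OSKM minus old it was 0.77 (1.71-fold, raw p = 0.00272, adjusted p = 0.547 in limma, exact permutation p = 0.0238). That call needed old-OSKM 1: without it the difference was 0.57, under the fold change limit. The adipocyte markers summed to 16.2 RPKM in old-OSKM 1 and to 17.4 in old-OSKM 4, the mice with the highest and the lowest Cdo1 of their group, against 4.61 to 7.85 in old mice, and their part in the difference was not tested.

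Pipox, a peroxisomal oxidase of sarcosine, the product of Gnmt, was at -1.60, -1.44, -1.22 and -1.49 log2 RPKM in young mice, at -0.27, 0.53, 0.47, -0.76 and 0.32 in old mice, and at -1.43, -0.34, -0.54 and -1.48 in old-OSKM mice. All old mice lay above all young mice, and 2 of the old-OSKM mice lay in the range of the young. Old minus young the difference was 1.497 (SE 0.31, 2.82-fold, adjusted p = 0.147 in limma, exact permutation p = 0.0159), and old-OSKM minus old it was -1.01 (0.498 of the old level, raw p = 0.00685, adjusted p = 0.547 in limma, exact permutation p = 0.0556). Its mean was near 1 RPKM in old mice and below that in the others, and the second difference kept its sign but lost the call without any of old 2, old 3, old 5, old-OSKM 1 or old-OSKM 4, the smallest difference being -0.83. Within the early run of identifiers Cdo1 was -1.05 and Pipox 1.52 old minus young, both still called, and 0.67 and -0.94 old-OSKM minus old, where neither was called.

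Among Atf4 and its targets, 3 of the 24 (12.5%) reached a raw p under 0.05 in limma between old and young mice, against 5.52% of all genes. Atf4 itself was at 3.43 to 3.65 log2 RPKM in young mice, 3.37 to 3.65 in old mice and 3.28 to 3.86 in old-OSKM mice, with a difference of -0.03 (95% interval -0.28 to 0.22) old minus young and -0.02 (-0.27 to 0.23) old-OSKM minus old. Atf5, a related factor, was at 0.43 old minus young (adjusted p = 0.172 in limma), with all 5 old mice above all 4 young mice. The cystine transporter Slc7a11 was at -0.56 (adjusted p = 0.614) and Chac1, a glutathione-degrading enzyme, at -0.71 (adjusted p = 0.695) in the same limma comparison. Between old-OSKM and old mice Sars, the seryl-tRNA synthetase, was at -0.19 and Gpt2, the mitochondrial alanine transaminase, at -0.24, each with an adjusted p of 0.547 in limma. Old-OSKM minus young, Atf5 was at 0.23 and Slc7a11 at -0.49, each with an adjusted p of 0.706 in limma.

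In the folate group 0 of 20 genes reached a raw p under 0.05 in limma between old and young mice, against 5.52% of all genes. Between old-OSKM and old mice 3 of 20 (15%) did, against 8.07% of all genes. They were the proton-coupled folate transporter Slc46a1 at -0.42, the folate receptor Folr2, known from macrophages, at 0.80, and Tyms at 0.26. Slc46a1 was also at -0.39 old-OSKM minus young. Old-OSKM 4 was the lowest for Slc46a1, at -0.39 log2 RPKM against 0.22 to 0.48 in the other old-OSKM mice. The macrophage markers summed to 16.9 to 43.8 RPKM in old-OSKM mice and 11.01 to 19.6 in old mice, and their part in the value of Folr2 was not tested. In the serine and glycine group the serine dehydratase Sds was at -0.62 old-OSKM minus old and its relative Sdsl at -0.32 old minus young and -0.42 old-OSKM minus young. Mtr, the methionine synthase, was at 0.17 old-OSKM minus old and at 0.22 against young mice, and Ckm, the muscle creatine kinase, at -0.64 old-OSKM minus old. Mpst, a sulfurtransferase of cysteine breakdown, was at -0.19 in that comparison, and, like Tyms, it was named after its value was seen, to complete the count. All of these had raw p-values between 0.01 and 0.05 and adjusted p-values over 0.5 in limma.

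**Figure D4:**
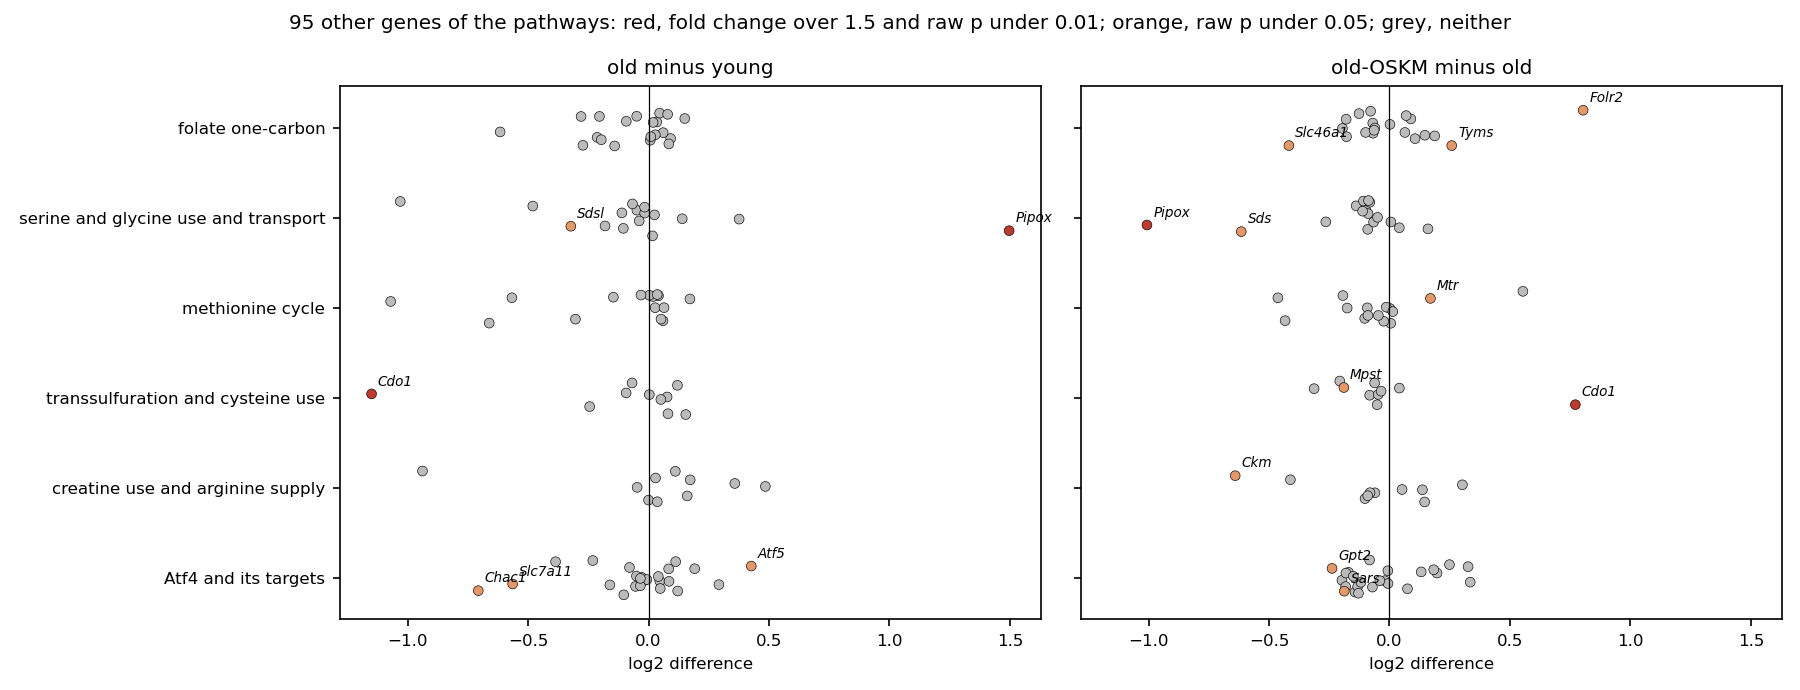
Each point is 1 of the 95 other pathway genes, placed by its log2 difference in old minus young (left) and old-OSKM minus old (right) in rows for the 6 groups, with a small vertical scatter for legibility. Red marks the called genes Cdo1 and Pipox, orange a raw p under 0.05, and grey the rest.

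**Figure D5:**
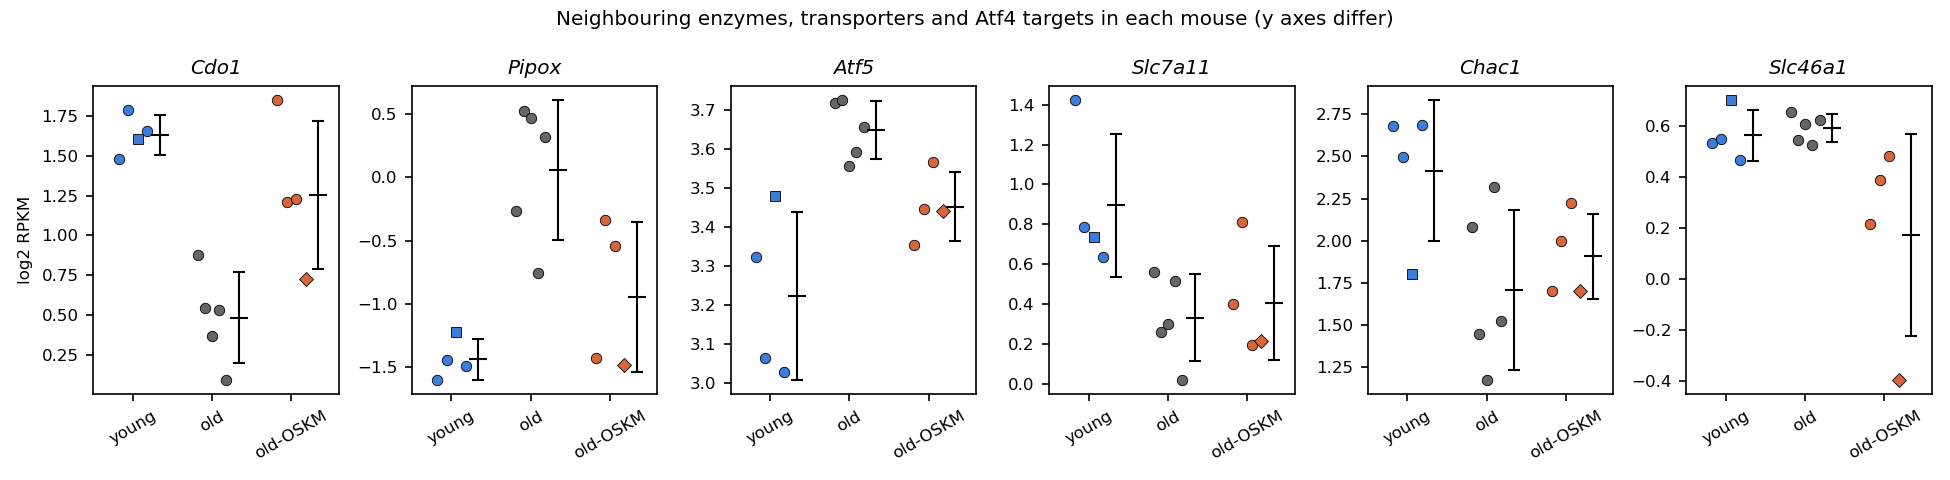
Log2 RPKM of 6 of the named pathway genes in each mouse, with the group mean and SD beside the points and the same symbols as in the plot of the members by mouse. Old and young mice do not overlap for Cdo1, Pipox, Atf5 and Slc7a11, but these genes were picked for their small p-values. Of all 95 pathway genes, 3 were higher and 2 lower in old mice without overlap, against 2.71% of all genes in either direction.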

How the data were processed

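RNA from the pancreas of 13 mice was depleted of ribosomal RNA and sequenced. The authors aligned reads to mm10 with STAR 2.3.0e and estimated RPKM per isoform with Casper. They summed these per gene, took log2 and quantile normalized the values. They also describe a correction for the total reads of each sample, from a linear model per gene that included the group. Whether the deposited values hold this correction was not tested. The deposited log2 RPKM of 23366 genes were used as they stand. The table holds no counts, so the depth of each library and the counting error are unknown. Quantile normalization gives all libraries nearly the same distribution, so a shift shared by all genes cannot be seen.

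The 3 groups were fitted together with limma 3.58.1 in R 4.3.3 without a covariate, and the rule for calls was the study's: a raw p under 0.01 with a fold change beyond 1.5. Adjusted p-values are Benjamini-Hochberg values over all genes. Single differences were also tested by exact permutation of mice. Correlations used values minus the group mean, 100000 permutations and adjustment over 45 pairs. The permutations exchanged mice across groups, whose spreads differed (for Psph an SD of 0.105 in old and 0.712 in old-OSKM mice). The permutation p-values of the correlations are therefore approximate and may be too small. No label says more of the mice of a group than that they are separate animals. The fit and the correlations were tested on simulated data.

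The members, the 95 pathway genes and the 13 marker lists were chosen with earlier results of these data known. Named were all members, Atf4, pathway genes called, and up to 6 others per comparison with the smallest raw p under 0.05. Alternatives covered normalization, pseudocounts of 1 and 0.1, a filter on low values, the fit, the run of sample identifiers, the call rule and each mouse left out.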

Additional observations from a re-analysis of the deposited data

Results flagged for a closer look

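Of 72 groups of mice tested, in which chance flags about 1 in 20, 2 held a mouse far from the others. Gatm in young 1 was at 4.77 log2 RPKM, below the other young mice, the nearest of which was at 4.99. Without it the difference between old and young mice was -0.30 instead of -0.24. Sds in young 3 was at -1.59, above the nearest other young mouse at -2.44. Young 3 is the mouse with the high sum of hepatocyte markers, and Sds is known from liver; the part of these markers in the value was not tested.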

How the results depend on the processing

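No analysis was paired, because each library came from a separate mouse and the labels link no mice of different groups. The table gives no depth, so low genes such as Psph and Pipox carry an unknown counting error. No member was called under any alternative except at a raw p under 0.05 alone, where 2 (old minus young) and 1 (old-OSKM minus old) were. The called pathway genes numbered 2 old minus young, and 1 with a mean log2 RPKM over 0, 0 at an adjusted p under 0.05, 6 at a raw p under 0.05 alone, 4 without young 3 and old-OSKM 4, and 2 to 4 with 1 mouse left out (4 without young 3). They numbered 2 old-OSKM minus old, and 0 with a pseudocount of 1 or an adjusted p, 1 with the filter, the identifier run as covariate, the early run alone, or without young 3 and old-OSKM 4, 11 at a raw p alone, and 0 (without old-OSKM 1) to 4 (without old-OSKM 2) with 1 mouse left out. They numbered 0 old-OSKM minus young, and 1 with the identifier run as covariate or the early run alone, 5 at a raw p alone, and 0 to 1 with 1 mouse left out. Correlated pairs numbered 12 (without old-OSKM 4) to 37 with 1 mouse left out. The early run and the removal of both mice together were chosen after seeing the data.

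Of 1671 values of single genes under alternatives, 65 changed sign, none of them a called gene. The cause of these changes was not tested. Part of the 1671 could not change sign, because some alternatives leave both compared group means as they are. These are the exact test, the trend and robust fit, the fit of only the groups compared, the filter, and leaving out a mouse of the group not compared. With the identifier run as covariate, old minus young became -0.021 for Phgdh, -0.018 for Psph, -0.00083 for Cbs and 0.026 for Atf4, old-OSKM minus old 0.016 for Atf4 and -0.0064 for Slc7a11, and old-OSKM minus young 0.041 for Atf4. A pseudocount of 1 gave -0.00057 for Psph old minus young. The early run alone gave, old minus young, -0.036 for Phgdh, -0.11 for Psph, 0.014 for Atf4 and -0.076 for Mtr, old-OSKM minus old, 0.020 for Atf4 and -0.0032 for Slc7a11, and old-OSKM minus young, 0.034 for Atf4. Without young 3 and old-OSKM 4, old-OSKM minus old became 0.057 for Phgdh, 0.083 for Psat1, 0.085 for Psph, 0.019 for Shmt2, 0.097 for Gamt and 0.0054 for Sdsl, and old-OSKM minus young 0.11 for Phgdh, 0.21 for Psph, 0.17 for Shmt2, 0.0059 for Mthfd2, 0.17 for Gamt, 0.14 for Cth and 0.093 for Sds. With 1 mouse left out, old minus young ranged from -0.052 to 0.097 for Phgdh, -0.16 to 0.24 for Psph, -0.026 to 0.15 for Shmt2, -0.0034 to 0.072 for Cbs, -0.068 to 0.015 for Atf4, -0.50 to 0.16 for Folr2, -0.0062 to 0.10 for Gpt2 and -0.0038 to 0.075 for Slc46a1. Old-OSKM minus old ranged from -0.18 to 0.057 for Phgdh, -0.22 to 0.083 for Psat1, -0.46 to 0.085 for Psph, -0.24 to 0.019 for Shmt2, -0.19 to 0.097 for Gamt, -0.15 to 0.045 for Atf4, -0.22 to 0.0054 for Sdsl and -0.061 to 0.14 for Slc7a11. Old-OSKM minus young ranged from -0.15 to 0.096 for Phgdh, -0.44 to 0.11 for Psph, -0.17 to 0.096 for Shmt2, -0.11 to 0.18 for Gamt, -0.23 to 0.11 for Cth, -0.18 to 0.017 for Atf4 and -0.45 to 0.0076 for Ckm.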
